A study of Mus musculus with 45 samples.

Results

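The 6 genes Trim43a, Trim43b, Trim43c, Khdc1a, Khdc1b and Khdc1c were taken by symbol from the 26214 genes for which expression was given in mouse fully grown oocytes (FGOs) and late two-cell embryos. Each gene had 1 value per library in TPM, a unit that divides by gene length and brings every library to the same sum. The study asked what altered methylation of histone H3 lysine 36 in the oocyte changes there and in the embryo, and RNA was sequenced from 6 FGO libraries and from single embryos. Control FGOs (3 libraries) came from females with the genotype H3f3b K36M-flox/+, and K36M FGOs (3 libraries) from females with the genotype H3f3b K36M-flox/+; Gdf9-Cre. Both groups therefore carried the floxed allele on a hybrid C57BL/6 / 129 background, and only the second also had the Cre recombinase, driven by the oocyte-specific Gdf9 promoter, that lets the H3.3 protein with a lysine-to-methionine change at position 36 be made. Each FGO library pooled 5 oocytes of females aged 3 to 4 weeks. Control (7 used) and K36M oocyte-derived (8) two-cell embryos were sequenced singly at 31 to 32 h after in vitro fertilization of superovulated oocytes with JF-1 sperm, and the allele each embryo inherited at H3f3b was not analysed here. Control embryo replicate 4 was not used by the study because of a technical problem and was left out. The labels do not say which libraries came from separate females, so p-values measure only the spread between these libraries, which may be technical in part.

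Trim43 genes encode tripartite motif proteins, a class with a RING finger in which many members act as ubiquitin ligases. They are known for expression in the cleavage-stage embryo, where the first wave of embryonic transcription begins. Khdc1 genes encode small proteins with a KH domain, a fold that often binds RNA, and are known from oocytes and early embryos, which live on maternal RNA until their own genome is switched on.

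The 3 Trim43 genes lie apart on chromosome 9 of GRCm38.p6, the assembly known as mm10. RefSeq places Trim43a at chr9:88580891-88588824 and Trim43c at chr9:88839164-88848190 on the plus strand, and Trim43b at chr9:89084624-89092835 on the minus strand, each with 7 exons. The 3 Khdc1 genes sit side by side on the plus strand of chromosome 1 with 3 exons each, Khdc1a at chr1:21349677-21352199, Khdc1c at chr1:21368331-21369743 and Khdc1b at chr1:21383556-21386384. RefSeq gives the symbols Khdc1b and Khdc1c as synonyms of one another, so the symbols used here are those of the expression table and their match to these positions is by name.

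The copies are close enough that single reads of 53 bases, the length sequenced, can fit more than 1 of them. Both ends of each fragment were sequenced, whereas the shares below take each window alone. The other end of a fragment could therefore place some reads that 1 window cannot. Khdc1a and Khdc1c share 500 of 501 coding bases, and the single substitution was T416C, with the Khdc1a base first and positions counted from 1 at the first coding base. The 53 bases around it are shown because within the coding sequence this base alone tells these genes apart, with the differing base in capitals.

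Khdc1a: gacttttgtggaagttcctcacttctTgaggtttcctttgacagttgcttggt
Khdc1c: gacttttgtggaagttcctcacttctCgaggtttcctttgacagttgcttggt

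These lie at chr1:21350982-21351034 and chr1:21369616-21369668 on the plus strand, within coding exons. Of the 53-base windows inside Khdc1c exons, 75.0% also occurred in an exon of another of the 6 genes and 22.1% occurred once in the genome. In Khdc1a exons 60.6% of windows occurred once. Khdc1b has a shorter coding sequence, 381 bases against 501, and 355 of those 381 bases (93.2%) matched Khdc1a and likewise Khdc1c. Over its exons, untranslated ends included, 3.25% of windows were shared with another of the 6 genes and 70.8% were found once.

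The coding sequences of the Trim43 genes were 96.6% to 98.0% identical. The 53 bases below were chosen as a stretch of coding exon in which the pair of copies most alike differed at as many positions as possible. Every position that differed among the 3 is in capitals.

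Trim43a: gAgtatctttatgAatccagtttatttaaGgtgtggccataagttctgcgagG
Trim43b: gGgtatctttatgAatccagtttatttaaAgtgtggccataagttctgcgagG
Trim43c: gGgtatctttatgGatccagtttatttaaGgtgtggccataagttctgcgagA

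They lie at chr9:88582097-88582149 (plus strand), chr9:89091567-89091619 (minus strand) and chr9:88840362-88840414 (plus strand). The share of exon windows found once in the genome was 58.9% for Trim43a, 47.3% for Trim43b and 61.6% for Trim43c. How reads that fit several copies were counted is not given in the sources used here, so the values of single Trim43 genes, and the split between Khdc1a and Khdc1c, are uncertain. Khdc1b is not free of this, since 25.9% of its exon windows also occurred in the genome outside the exons of the 6 genes, against 9.4% for Khdc1a and 9.2% for Trim43b. Each Trim43 gene also overlaps a gene on the opposite strand, Trim43c sharing 353 exon bases with 9330159M07Rik, Trim43a 353 with Gm51715 and Trim43b 124 with Gm40542, and without a stated strand setting reads of such a pair cannot be told apart. Gm51715 and Gm40542 were not analysed here.

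The RefSeq promoter table held an entry for 2 of the 6 genes, 1 of each family. The 250 bases before the start of Trim43a (chr9:88580641-88580890, plus strand) and of Khdc1b (chr1:21383306-21383555, plus strand) are shown because the first gene was near 0 in oocytes and the second was abundant there.

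Trim43a: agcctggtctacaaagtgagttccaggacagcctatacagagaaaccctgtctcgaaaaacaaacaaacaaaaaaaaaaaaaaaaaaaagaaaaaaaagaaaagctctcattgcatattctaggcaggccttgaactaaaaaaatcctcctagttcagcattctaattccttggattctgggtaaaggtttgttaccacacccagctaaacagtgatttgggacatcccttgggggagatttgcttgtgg
Khdc1b: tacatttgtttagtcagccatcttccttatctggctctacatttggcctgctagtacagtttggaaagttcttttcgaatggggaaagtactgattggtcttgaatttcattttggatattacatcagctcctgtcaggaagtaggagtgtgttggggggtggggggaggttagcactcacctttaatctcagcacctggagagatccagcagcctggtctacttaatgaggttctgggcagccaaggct

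Motifs were searched on both strands over windows of the same length before all 32851 starts in the table. GATTNAATC, the core bound by the two-cell factor Dux, was in 0.247% of all windows. The homeodomain motif TAATCC was in 6.25% of them. The orphan nuclear receptor motif TCAAGGTCA was in 0.387%. The TATA box TATAAA was in 12.4%. Neither window shown held a match, and for that reason no base is in capitals.

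The libraries were first set against markers. All 8 oocyte genes listed, among them Gdf9 and Zp3, were lower in control embryos than in control FGOs past a limma adjusted p of 0.05, and 7 of 8 embryonic genes, among them Zscan4d and Zfp352, were higher, although only 3 of the 8 passed the filter among FGOs and the rise of the others was built in. The 10 listed granulosa and cumulus cell genes summed to 44.4 to 64.5 TPM in FGO libraries and to 0 to 148 TPM in embryos, and their part in the results was not tested. TPM keeps no read depth, so the reads behind a value are unknown. The number of genes with a TPM above 0 was 16707 to 18559 in FGO libraries, 12115 to 17329 in control embryos and 10894 to 14879 in K36M oocyte-derived embryos, so genotype and stage also moved with this sign of library complexity. Its relation to each member within an embryo group is among those computed below. Its part in the differences between groups was not tested. Stage is bound to the pooling of oocytes, the paternal JF-1 genome and the amplification cycles of the library (10 and then 10 for FGOs, 10 and then 13 for embryos), and these cannot be told apart. Since TPM is a share of a library, fewer cells of a type and less RNA per cell cannot be told apart either.

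Trim43a and Trim43b were almost absent from oocytes and among the more abundant transcripts of the embryo. Trim43a, a tripartite motif gene, was listed at 0 in control FGO replicates 1 and 3 and at 0.254 TPM in replicate 2. In K36M FGOs it was at 0.0571 TPM in replicate 1 and at 0 in the others. In the 7 control embryos its lowest, median and highest values were 114, 320 and 388 TPM, and in the 8 K36M oocyte-derived embryos 172, 301 and 440 TPM. Every embryo lay above every FGO library, as held for 14.1% of all genes tested in controls and 9.04% in K36M. Trim43b, its closest copy in coding sequence, was at 0.250, 0.260 and 0.0865 TPM in the control FGO replicates and at 0, 0 and 0.0858 TPM in the K36M FGO replicates. Its lowest, median and highest values were 136, 335 and 343 TPM in control embryos and 184, 216 and 437 TPM in K36M oocyte-derived embryos. Again every embryo lay above every FGO library.

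Trim43c was lower than its copies in embryos but was the one detected in every oocyte library. Its values were 0.757, 1.67 and 2.28 TPM in control FGOs and 0.913, 0.767 and 2.49 TPM in K36M FGOs. Control embryos had 13.3, 74.6 and 101 TPM as lowest, median and highest, and K36M oocyte-derived embryos 24.7, 67.9 and 141 TPM. The embryo mean was 42.3 times the FGO mean in controls (66.4 ± 29.9 against 1.57 ± 0.77 TPM, SD, n = 7 and 3) and 53.8 times in K36M (74.8 ± 43.1 against 1.39 ± 0.95 TPM, n = 8 and 3). For Trim43a and Trim43b no fold is given, because most of their oocyte values were at 0 or far under 1 TPM. The antisense neighbour 9330159M07Rik moved in the same direction, from 1.07 ± 0.41 to 29.3 ± 26.5 TPM in controls (n = 3 and 7).

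**Figure D1:**
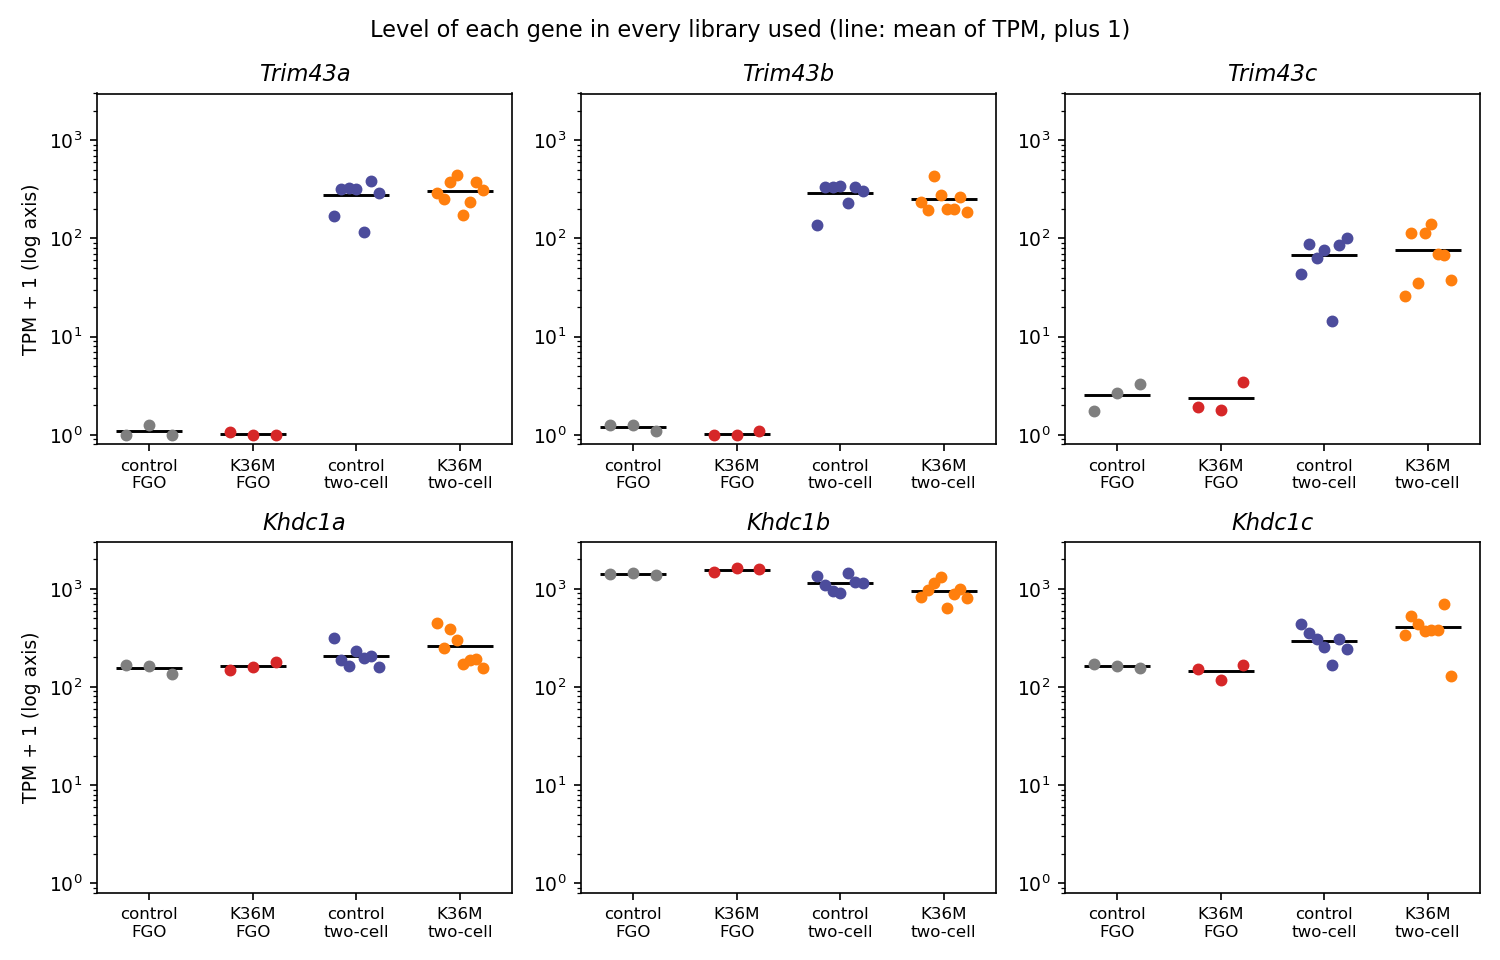
TPM plus 1 on a log axis for the 6 genes in the 3 control FGO, 3 K36M FGO, 7 control two-cell and 8 K36M oocyte-derived two-cell libraries, 1 point per library, with a line at the mean of TPM plus 1. Trim43 genes are near the floor in FGOs and high in embryos, while all 3 Khdc1 genes are above 115 TPM in every library.

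All 3 Khdc1 genes were already abundant in FGOs. RNA stored from the oocyte and RNA newly made in the embryo cannot be told apart here. Khdc1b, a KH-domain gene, was the highest of the 6 genes in every library. It was at 1401, 1434 and 1372 TPM in control FGOs and at 1475, 1621 and 1601 TPM in K36M FGOs. These sets of oocytes did not overlap, as held for 15.6% of all genes tested between FGOs. In control embryos its lowest, median and highest values were 909, 1150 and 1453 TPM, with 6 of 7 embryos below the lowest control FGO library and 1 above the highest. In K36M oocyte-derived embryos they were 644, 920 and 1307 TPM, and all 8 lay below the lowest K36M FGO library, as held for 17.2% of all genes tested (18.2% in controls).

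Khdc1a and Khdc1c, which differ by 1 coding base, had like levels in oocytes. Khdc1a was at 166, 162 and 135 TPM in control FGOs and at 148, 161 and 179 TPM in K36M FGOs. In embryos its lowest, median and highest values were 157, 198 and 315 TPM (control) and 153, 221 and 447 TPM (K36M). Its stages overlapped in both genotypes, with 5 of 7 control and 6 of 8 K36M oocyte-derived embryos above their highest FGO library. Khdc1c was at 172, 161 and 154 TPM in control FGOs and at 150, 116 and 166 TPM in K36M FGOs. It reached 166, 304 and 435 TPM (lowest, median and highest) in control embryos and 130, 378 and 707 TPM in K36M oocyte-derived embryos, where 6 of 7 and 7 of 8 embryos were above the highest FGO library of their genotype. Because reads may be split between them, the sum of Khdc1a and Khdc1c was also taken, and it was 317 ± 25.4 TPM in control FGOs, 306 ± 35.6 in K36M FGOs, 502 ± 126 in control embryos and 669 ± 199 in K36M oocyte-derived embryos (SD, n = 3, 3, 7 and 8). The lowest control embryo sum, 364 TPM, was above the highest control FGO sum, 338 TPM, whereas the lowest K36M embryo sum, 283 TPM, fell inside the K36M FGO range.

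In the order of levels per length, neighbours are said not to differ beyond their spread where their ranges of mean ± SD overlap. This rule does not use that the genes were measured in the same libraries. Control FGOs had Khdc1b first at 1402 ± 30.9 TPM, then Khdc1c at 162 ± 9.4 and Khdc1a at 155 ± 16.8, which do not differ beyond their spread, and then the Trim43 genes at under 2 TPM. In control embryos Khdc1b was still first at 1154 ± 194 TPM. Khdc1c at 294 ± 86.3, Trim43b at 289 ± 78.4 and Trim43a at 276 ± 97.5 TPM came next, then Khdc1a at 208 ± 53.6, and these 4 do not differ beyond their spread. Trim43c was last at 66.4 ± 29.9 TPM. In K36M oocyte-derived embryos the order was Khdc1b (944 ± 206 TPM), Khdc1c (409 ± 165), Trim43a (306 ± 87.8), Khdc1a (260 ± 108), Trim43b (249 ± 83.6) and Trim43c (74.8 ± 43.1), and the 4 between the first and the last again do not differ beyond their spread. The gene lengths behind TPM are not given in the sources used here, so an order between genes rests on them.

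The stages were compared on log2(TPM + 1) with limma in 1 fit over the 21 libraries, for the 17358 genes with a mean of at least 1 TPM, with Benjamini-Hochberg adjustment over all of them. This scale understates differences of low genes. Trim43a and Trim43b passed that filter only through the embryos, so for them a difference was built in, and their counts support nothing. In controls 3 of the 6 genes were higher in embryos past an adjusted p of 0.05, the 3 Trim43 genes, beside 13.4% of all genes tested, and none was lower, beside 13.2%. Of these 3, 1 (Trim43c) had passed the filter in both stages. Of all genes 2323 were higher and 2292 lower, and with median-of-ratios scaling 1951 were higher and 3106 lower. The differences were 7.90 (SE 0.41, limma adjusted p = 6.3e-13) for Trim43a, 7.86 (SE 0.38, adjusted p = 2.6e-13) for Trim43b and 4.55 (SE 0.63, adjusted p = 8.0e-06) for Trim43c, and 0.0922%, 0.0979% and 3.04% of all genes had a larger difference in either direction. Khdc1a and Khdc1c did not pass, at 0.40 (SE 0.31, limma adjusted p = 0.37) and 0.80 (SE 0.35, adjusted p = 0.098). For Khdc1b the control difference was -0.30 (SE 0.17, limma adjusted p = 0.22), and its sign was opposite, 0.16, when libraries were quantile normalized, so no direction is given for it in controls. The fit takes 1 spread per gene for pooled oocytes and single embryos. In controls the SD of log2(TPM + 1) was 0.032 in FGOs and 0.24 in embryos for Khdc1b, and 0.083 and 0.44 for Khdc1c. With array weights, which let libraries differ in weight, 5 of the 6 passed in controls: Khdc1c at 0.85 (limma adjusted p = 0.00098) and Khdc1b at -0.38 (adjusted p = 0.0018) joined the Trim43 genes.

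In K36M, 5 of the 6 genes passed. The 3 Trim43 genes and Khdc1c were higher in embryos, beside 10.8% of all genes, and Khdc1b was lower, beside 18.6%. Of the 4 higher genes, 2 (Trim43c and Khdc1c) had passed the filter in both stages. The rise of Trim43a and Trim43b was again built in. Trim43a differed by 8.18 (SE 0.40, limma adjusted p = 2.6e-13), Trim43b by 7.87 (SE 0.37, adjusted p = 1.9e-13) and Trim43c by 4.82 (SE 0.62, adjusted p = 2.4e-06). Khdc1c rose by 1.39 (SE 0.35, limma adjusted p = 0.0038), with a mean of 409 TPM in embryos against 144 TPM in FGOs. Khdc1b fell by 0.76 (SE 0.17, limma adjusted p = 0.0015), from a mean of 1566 to 944 TPM. The median of all genes in this comparison was -0.18, so the fall of Khdc1b relative to it was smaller, and without the mean-variance trend its adjusted p was 0.070. Khdc1a was at 0.58 (SE 0.30, limma adjusted p = 0.16) and passed only with array weights (0.61, adjusted p = 0.017).

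**Figure D2:**
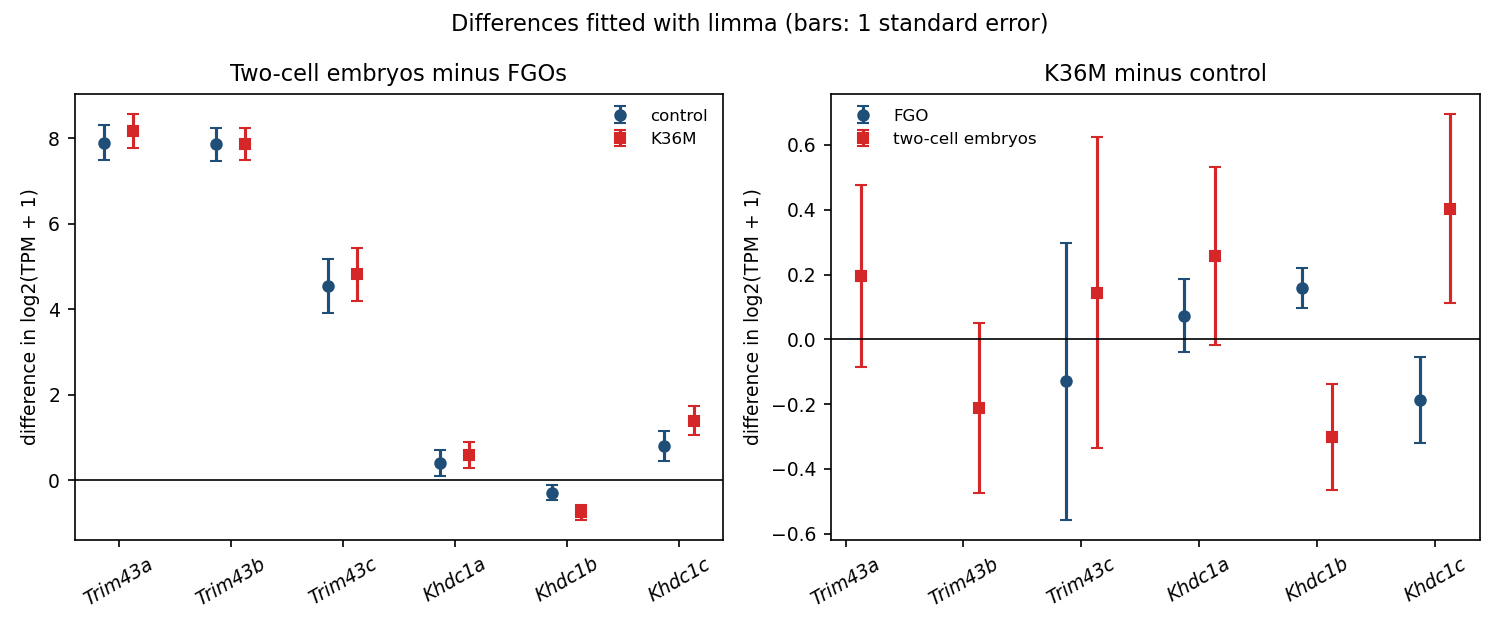
Left, two-cell embryos minus FGOs in log2(TPM + 1) for control (circles) and K36M (squares), and right, K36M minus control for FGOs (circles) and embryos (squares), with bars of 1 standard error from limma. Stage differences near 8 log2 units for Trim43a and Trim43b stand beside genotype differences within 0.41 of 0 for every gene. Trim43a and Trim43b have no FGO point because they were under the expression filter there.

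Whether the stage change differed with genotype was tested as an interaction in the same fit. None of the 6 genes passed, and none of the 17358 genes did (0%), with 199 of them at an unadjusted limma p under 0.05. Khdc1b had the smallest unadjusted p of the 6, with a interaction of -0.46, a lower change in K36M (95% interval -0.96 to 0.039, limma adjusted p = 1.0). For Khdc1c the interaction was 0.59 (95% interval -0.43 to 1.61), and for Trim43a, Trim43b and Trim43c it was 0.28 (-0.90 to 1.45), 0.0069 (-1.09 to 1.11) and 0.27 (-1.56 to 2.10). With a pseudocount of 0.1 those of Trim43a and Trim43b were 0.59 and 1.01, neither past the threshold, and they turn on oocyte values near 0. These intervals leave room for differences of over 1 log2 unit in the Trim43 genes. The stage changes of Khdc1b and Khdc1c that passed in K36M and not in controls are thus not shown to differ between genotypes.

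Between K36M and control FGOs no tested member passed. Of the 6, 4 were among the 13775 genes tested, of which 1 passed (0.00726%) and 1446 had an unadjusted limma p under 0.05, Khdc1b alone among the members. Khdc1b was higher in all 3 K36M libraries than in any control library, by 0.16 (SE 0.062, limma adjusted p = 0.44), a ratio of means of 1.12. Groups of 3 that do not overlap occurred for 15.6% of the genes tested, so this separation was common. Khdc1c differed by -0.19 (95% interval -0.49 to 0.12, limma adjusted p = 0.64), Khdc1a by 0.074 (-0.18 to 0.33, adjusted p = 0.84) and Trim43c by -0.13 (-1.10 to 0.84, adjusted p = 0.93). Trim43a and Trim43b were under the filter and were compared by a two-sided exact permutation test, in which 3 against 3 libraries cannot give a p under 0.1. Trim43b, at or under 0.260 TPM throughout, was lower in every K36M library (exact p = 0.1), and Trim43a gave an exact p of 1.0.

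Between K36M oocyte-derived and control embryos no member passed either. Of 17362 genes tested 0 passed (0%), while 1338 had an unadjusted limma p under 0.05, 209 higher and 1129 lower in K36M, and the median of all genes was -0.26. The groups of all 6 members overlapped, as did those of nearly all genes (0.115% did not). Khdc1b differed most clearly, by -0.30 (95% interval -0.64 to 0.038, limma adjusted p = 0.68, two-sided exact permutation p = 0.060), with 7 of 8 K36M oocyte-derived embryos below the control mean. That difference was close to the median of all genes, and the median of the 6 members was 0.17. Khdc1c went the other way, by 0.40 (95% interval -0.20 to 1.01, limma adjusted p = 0.73), with 7 of 8 embryos above the control mean. Trim43a differed by 0.20 (-0.39 to 0.78, limma adjusted p = 0.85), Trim43b by -0.21 (-0.75 to 0.33, adjusted p = 0.82), Trim43c by 0.14 (-0.85 to 1.13, adjusted p = 0.94) and Khdc1a by 0.26 (-0.31 to 0.82, adjusted p = 0.78). The intervals of the Trim43 genes allow changes of up to 0.78 log2 units for Trim43a and over 1 for Trim43c. The genotype comparisons share their libraries with the stage comparisons.

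Levels were also summed by family. Trim43 genes together gave 1.85 ± 0.74 TPM in control FGOs and 1.44 ± 0.99 in K36M FGOs, and 632 ± 193 and 629 ± 144 TPM in control and K36M oocyte-derived embryos. In FGOs Trim43c held 82.7% (control) and 96.9% (K36M) of that small sum, and in embryos it held 10.2% and 12.5%, while Trim43a held 43.2% and 48.4% and Trim43b 46.7% and 39.1%. The Khdc1 sum was 1719 ± 51.4 and 1872 ± 89.6 TPM in control and K36M FGOs, and 1656 ± 241 and 1614 ± 342 TPM in the embryos. Control embryo sums, 1392 to 2087 TPM, reached past both ends of the control FGO range of 1661 to 1757 TPM, and K36M embryo sums, 1091 to 1971 TPM, past both ends of the K36M FGO range of 1772 to 1946 TPM, with 5 of 8 below it. Khdc1b held 81.6% ± 1.0 (SD, n = 3) of it in control FGOs and 83.6% ± 1.6 in K36M FGOs, against 69.6% ± 5.7 (n = 7) and 59.0% ± 7.8 (n = 8) in the embryos. The Khdc1b share in each embryo, 51.3% to 80.0%, lay below that in every FGO library, 80.6% to 85.4%. Khdc1c held 9.4% and 7.7% of the sum in FGOs and 17.8% and 25.0% in embryos. No test was made on these sums and shares.

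**Figure D3:**
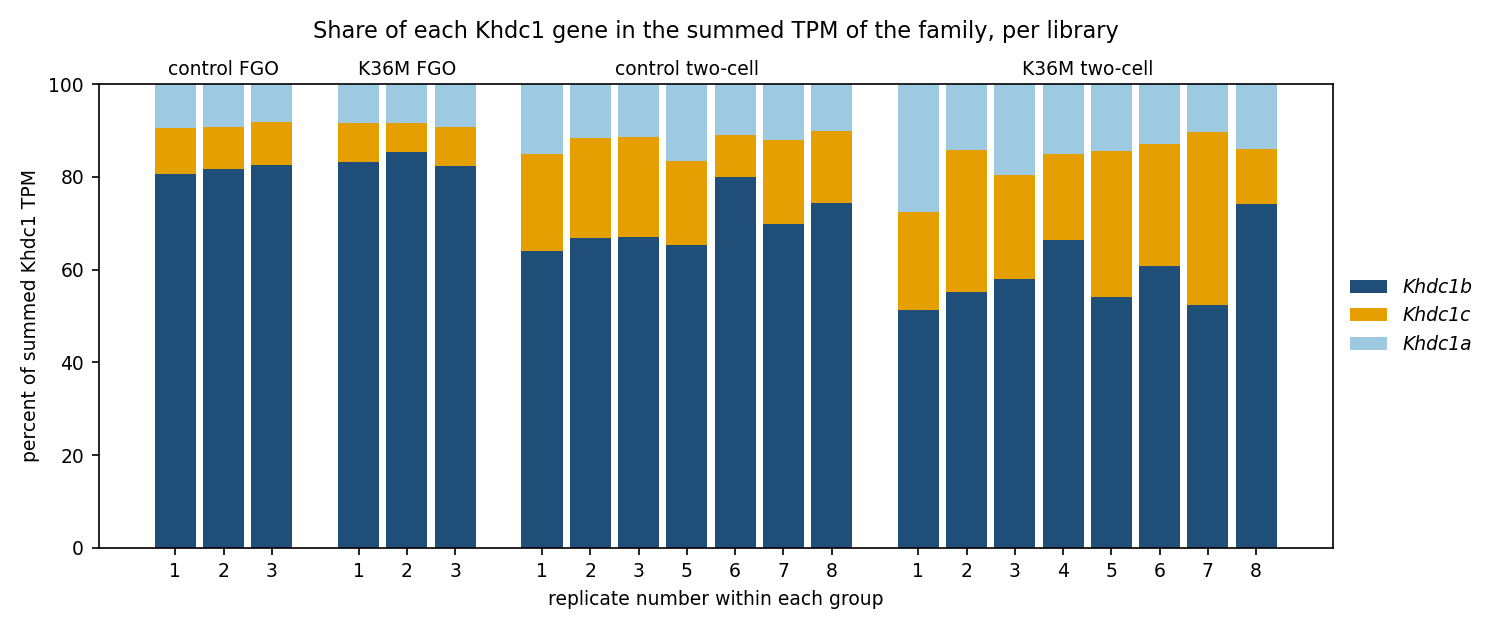
Stacked bars of the percent of summed Khdc1 TPM held by Khdc1b (bottom), Khdc1c and Khdc1a in each library, grouped by control FGO, K36M FGO, control two-cell and K36M oocyte-derived two-cell. Khdc1b holds 80.6% to 85.4% in FGO libraries and 51.3% to 80.0% in embryos, where the split also varies more from library to library.

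Single embryos of 1 group varied less in these genes than in most. In control embryos the SD of log2(TPM + 1) was 0.24 for Khdc1b, 0.34 for Khdc1a, 0.44 for Khdc1c, 0.49 for Trim43b, 0.63 for Trim43a and 0.98 for Trim43c, beside a median of 1.18 over the 17362 genes tested. For Khdc1b 95.6% of genes had a larger SD, and for Trim43c 59.6%. In K36M oocyte-derived embryos the SDs ran from 0.31 (Khdc1b) to 0.91 (Trim43c), beside a median of 1.401. Low genes vary more on this scale, and the members are well above the median level, so this places them among all genes and not among genes of like level.

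Across embryos 42 relations were computed in all, 15 pairs of members and 6 relations of a member to the number of genes above 0 in each embryo group, and none passed after Benjamini-Hochberg adjustment. In 4 of them the unadjusted exact permutation p of r was under 0.05. Trim43a and Trim43b, the closest copies, gave Pearson's r = 0.74 (exact permutation p = 0.045, adjusted p = 0.36) and Spearman's rho = 0.86 (exact p = 0.024, adjusted p = 0.58) in 7 control embryos, and r = 0.64 (exact p = 0.083, adjusted p = 0.36) and rho = 0.64 (exact p = 0.096, adjusted p = 0.58) in 8 K36M oocyte-derived embryos. Without the 2 embryos farthest from the median of Trim43a, r was 0.59 and 0.72. Trim43a and Trim43c gave r = 0.92 (exact permutation p = 0.016, adjusted p = 0.35) and rho = 0.39 (exact p = 0.40, adjusted p = 0.86) in control embryos, but r = -0.24 without 2 embryos, so the relation rests on those. Trim43a and Khdc1b gave r = -0.78 (exact p = 0.043, adjusted p = 0.36) and rho = -0.61 (exact p = 0.17, adjusted p = 0.78) in control and r = 0.86 (exact p = 0.0067, adjusted p = 0.28) and rho = 0.79 (exact p = 0.028, adjusted p = 0.58) in K36M oocyte-derived embryos, where leaving out 2 embryos changed r to 0.24 and 0.51. The control relation rests on those 2 embryos, and the difference in sign between the groups was not tested. The part of reads shared between copies was not tested.

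Genes whose level most resembled that of each member over the 15 embryos, after centring on each group, were ranked by Pearson's r of log2(TPM + 1) among 17362 genes. They were Odc1 (r = 0.92) and Ctnnb1 (0.90) for Trim43a, Bhlhb9 (0.88) and Timm8a1 (0.82) for Trim43b, and Trp53bp1 and Zfp939 (both 0.89) for Trim43c. For the other family they were Znfx1 (0.93) and Gm17751 (0.92) for Khdc1a, Dnah6 (0.82) and Lair1 (0.79) for Khdc1b, and Timm21 (0.88) and Uck2 (0.87) for Khdc1c. The members named no gene in common. These are descriptions over the same 15 embryos, with no test.

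Other genes known from the two-cell stage were read the same way. Of 21 such genes in the table, all tested, 17 were higher in control embryos than in control FGOs past the threshold, none was lower, and the median difference was 4.41 beside 0.0017 for all genes. In K36M 15 of the 21 were higher, with a median of 4.80 beside -0.18. Usp17lb, of a deubiquitinase family, was the one with the largest control difference, 8.55 (SE 0.46, limma adjusted p = 1.3e-12), near those of Trim43a and Trim43b. Sp110, a nuclear body gene, was abundant in both stages (686 ± 45.5 TPM in control FGOs and 1008 ± 374 in control embryos) and did not pass (0.48, SE 0.31, adjusted p = 0.27). Of the lowest in embryos, Zscan4b at 5.57 ± 9.90 TPM did not pass (1.59, adjusted p = 0.25), and Tdpoz5 at 3.29 ± 2.97 TPM did (1.82, adjusted p = 0.041). Of the 21, 5 passed the expression filter among FGOs, and the others, like Trim43a and Trim43b, were in the stage fit only through the embryos, so that a rise was built in and these counts and medians support nothing about the list. In the genotype comparison of embryos 0 of 21 passed by limma, with 0 higher and 2 lower at an unadjusted p under 0.05.

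Relatives by domain were also read. Khdc3, Ooep and Dppa5a, which encode KH-domain proteins, Khdc3 and Ooep also being parts of the subcortical maternal complex of the oocyte, were abundant in FGOs, at 776 ± 98.7, 893 ± 113 and 297 ± 49.3 TPM in controls. In control embryos they were at 64.6 ± 46.9, 49.95 ± 27.4 and 174 ± 97.6 TPM. Khdc3 fell by 4.31 (SE 0.91, limma adjusted p = 0.00098) and Ooep fell by 4.33 (SE 0.53, adjusted p = 1.2e-06) on the log2 scale, and Dppa5a, at -1.16, did not pass (adjusted p = 0.35). In K36M all 3 fell past the threshold, beside 18.6% of all genes, and Dppa5a fell by 2.61 (SE 0.86, limma adjusted p = 0.024). Of the 47 other Trim genes tested, 5 were higher, 10 lower and 32 not called in control embryos, with a median of -0.15. The shares over all genes were 13.4% higher and 13.2% lower, and the list was not tested against them. A gene that passed the filter through 1 stage alone had to differ, and 11 of the 47 passed only through the embryos and 4 only through the FGOs. Of the genes past the filter in both stages, 3 were higher and 7 lower. The 3 were Trim8 (3.62), Trim41 (2.22) and Trim44 (1.58), and Trim38 (-3.39) and Trim11 (-3.31) were the lowest of the 7. In K36M 5 were higher and 14 lower, beside 10.8% and 18.6% of all genes. Of these, 3 and 11 were past the filter in both stages, and the median of the list was -0.51 beside -0.18.

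**Figure D4:**
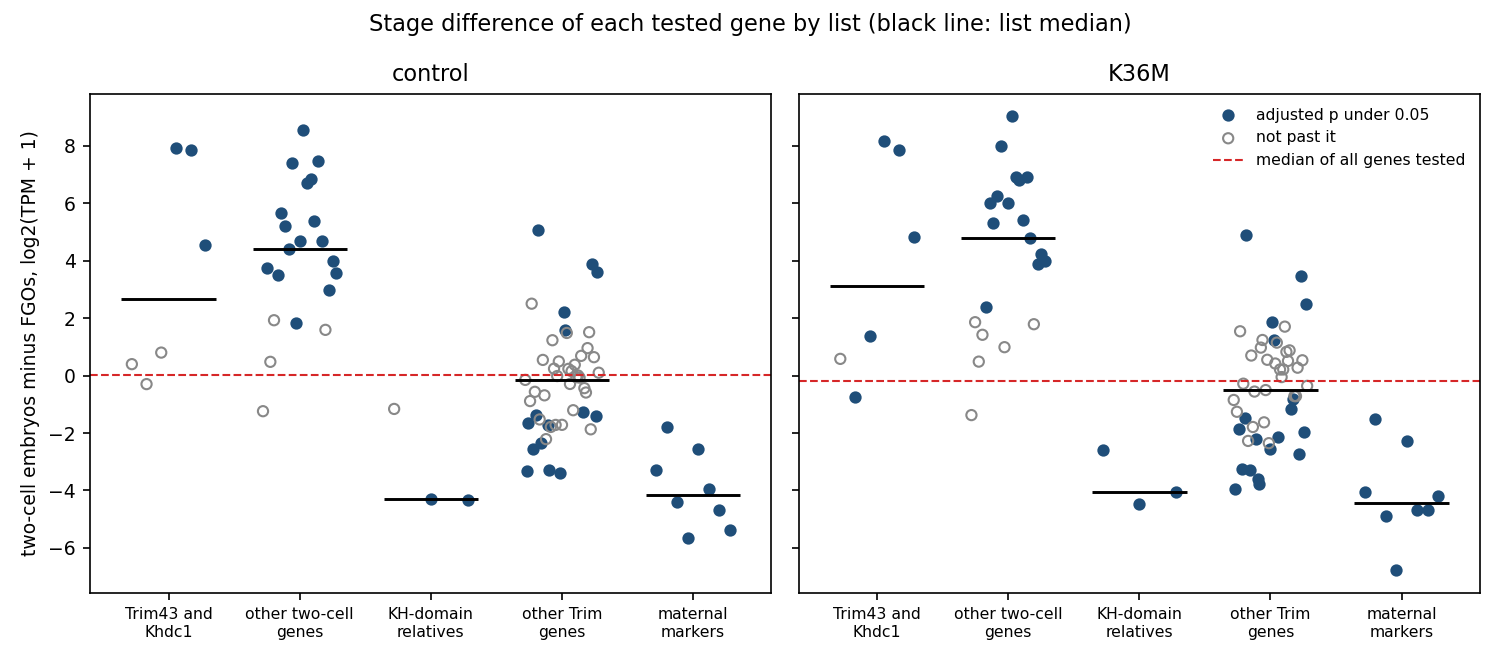
Two-cell embryos minus FGOs in log2(TPM + 1), 1 point per tested gene, for Trim43 and Khdc1, 21 other two-cell genes, 3 KH-domain relatives, 47 other Trim genes and 8 maternal markers, in control (left) and K36M (right). Filled points passed an adjusted p of 0.05, black lines are list medians and the dashed line is the median of all genes. The Trim43 points lie at 4.55 to 8.18 and the Khdc1 points at -0.76 to 1.39.

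The nearest genes of the table on each side were also read. Next to the Khdc1 genes, Gm4956, Gsta3 and Kcnq5 had means of at most 3.46 TPM in any group, and Rims1 had 45.3 ± 2.1 TPM in control FGOs and 24.7 ± 17.7 in control embryos, with no stage difference past the threshold in either genotype. Before Trim43a, Zfp949, a zinc finger gene 9805 bases away, rose from 4.16 ± 0.84 TPM in control FGOs to 54.6 ± 31.2 in control embryos (3.24, SE 0.50, limma adjusted p = 3.2e-05), and by 3.44 in K36M (adjusted p = 9.9e-06). Snhg5, a host gene of small nucleolar RNAs, rose from 14.3 ± 5.4 to 199 ± 113 TPM (3.59, SE 0.60, limma adjusted p = 8.6e-05) and by 4.14 in K36M (adjusted p = 1.0e-05). After it, 9430037G07Rik did not pass in either genotype, and Mthfsl fell by 3.34 in K36M (SE 0.71, limma adjusted p = 0.0010) and was at -1.57 in controls (adjusted p = 0.11). Apart from the overlapping 9330159M07Rik, the nearest genes to Trim43b and Trim43c were all under the filter, with means of at most 2.09 TPM in any group.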

How the data were processed

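RNA was sequenced with a stranded SMART-Seq kit from 6 FGO libraries and 16 single two-cell embryos, and groups came from the labels. Before mapping to mm10 with Hisat2, the authors trimmed 3 adaptor bases from Read 2 (Trim Galore!). They then discarded ribosomal RNA reads (BEDTools), counted with featureCounts and deposited TPM, in which every library sums to 1000000. The annotation, gene lengths, strand setting and treatment of reads that fit several genes are not given in the sources used here, and TPM keeps no depth, so no count test was run.

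For log2(TPM + 1), limma 3.58.1 was used in R 4.3.3 with trended eBayes. Genes averaging 1 TPM or more entered, in 1 fit over 21 libraries for stage and interaction and in separate fits for FGOs and embryos, calling genes at a Benjamini-Hochberg adjusted p under 0.05. Members under the filter, and embryo differences of single genes, were compared by two-sided exact permutation. The limma step was also run on simulated data with known changes. No rate of recovery is given here, so that run does not measure the power of the comparisons above. Positions, coding sequence and promoters came from RefSeq (GRCm38.p6), where 99.8% of the symbols of the table were found, and coding sequences were aligned with Biopython 1.88. Results were recomputed with array weights, an untrended eBayes, quantile or median-of-ratios scaling, a pseudocount of 0.1, every gene above 0 or a filter at 5 TPM, a replicate block, 1 FGO library fewer, and control embryo replicate 4 included.

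The members were always named. Listed genes were named when past the threshold or as examples of the highest and lowest mean TPM in control embryos, alike genes as the 2 with the highest correlation, and neighbours as the 2 nearest on each side. Usp17lb, Trim38 and Trim11 were singled out after their values were seen. Members and lists were chosen with earlier results of these data known. The 6 genes of stroma and blood (1.20 to 6.43 TPM summed in FGO libraries, 1.13 to 55.3 in embryos) were a further marker list. The chromatin and DNA methylation files of the series were not analysed here.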

Additional observations from a re-analysis of the deposited data

Results flagged for a closer look

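In 3 of the 12 groups of embryos examined (6 genes in control and in K36M oocyte-derived embryos) 1 embryo stood apart by Dixon's test at 95% on log2(TPM + 1), where chance gives about 1 in 20 groups, or 0.6 of 12. Trim43b was at 135.7 TPM in control replicate 1, beside 230 to 343 TPM in the other 6. Trim43c was at 13.3 TPM in control replicate 6, beside 42.9 to 101 TPM. Khdc1c was at 129.7 TPM in K36M replicate 8, beside 341 to 707 TPM. Each was the lowest value of its group, and on log2(TPM + 1) the gap to the next was 0.57 of the group's range in all 3, against limits of 0.568 for 7 embryos and 0.526 for 8. On the TPM scale none of the 3 gaps passes its limit.

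Control embryo replicate 4, which was left out of the comparisons and added only as an alternative, held Khdc1a and Khdc1b above the level in the other control embryos. Khdc1a was at 400.2 TPM there against a highest of 315 TPM in the others, and Khdc1b at 1807 TPM against 1453, while Khdc1c, at 232 TPM, lay inside their range of 166 to 435 TPM. Its Trim43a and Trim43b values, 17.0 and 26.97 TPM, lay below those of every embryo used, Trim43c was listed at 0, and its 8 maternal markers summed to 6733 TPM beside 1093 to 4000 TPM in the other control embryos.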

How the results depend on the processing

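Over the alternatives, 360 values of single genes kept their direction and their side of the threshold, 13 turned direction, 5 came to pass and 1 ceased to pass. None of the 13 that turned had passed. In the control stage comparison Khdc1b was 0.16 with quantile normalization, but -0.62 with median-of-ratios scaling and -0.38 with array weights (limma adjusted p = 0.0081 and 0.0018). The interaction of Trim43b, 0.0069 as reported, was 1.01 with a pseudocount of 0.1, -0.14 with quantile normalization, -0.021 with array weights, and -0.031, -0.025, -0.013 and -0.013 without control FGO replicate 2, control 1, K36M 1 and K36M 2 (range over all FGO libraries left out -0.031 to 0.076), and that of Trim43a went from 0.28 to 0.59 with the pseudocount. Over all alternatives the interaction of Trim43a ran from 0.17 to 0.76 and that of Trim43c from 0.021 to 1.01. Between embryos Trim43c was -0.060 with array weights and Trim43b 0.20 with control replicate 4 added. Over all alternatives the embryo difference of Trim43a ran from 0.11 to 0.68 and that of Trim43c from -0.060 to 0.88. None of these values passed the threshold. Between FGOs Trim43c was 0.071 without control replicate 3 and 0.054 without K36M replicate 2 (range -0.44 to 0.071), and Khdc1a -0.019 without control replicate 3 (range -0.019 to 0.14). Khdc1c kept its sign there but ranged from -0.30 to -0.038 with 1 FGO library left out. The median of the 6 control stage differences, 2.67, was 3.01 with a pseudocount of 0.1, 2.38 with median-of-ratios scaling and 2.29 with control embryo replicate 4 added, and 5 members in place of 3 passed with array weights. With replicate 4 added, 6 relations between members, counted over both embryo groups, passed in place of 0, and leaving out the 2 farthest embryos was given as r with no test. Leaving out FGO libraries left 3 members passing in controls and 5 in K36M each time. Khdc1b in K36M lost its call (limma adjusted p = 0.070) without the mean-variance trend. Over all genes, array weights gave 4883 higher and 4847 lower in the control stage comparison and 3347 and 5180 in K36M (2323 and 2292, 1866 and 3228 as reported), and leaving out 1 control FGO library gave 1559 to 1592 higher and 1265 to 1313 lower in controls. Without K36M FGO replicate 1, 191 genes were higher and 109 lower between FGOs in place of 1 in all, none of them a member. With every gene above 0, 11 were higher and 2 lower in the interaction in place of 0, and without the trend 1 higher and 4 lower between embryos. The cause of these shifts was not tested. The reads behind the oocyte values of Trim43a and Trim43b are unknown.

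Whether the replicate numbers pair samples is not known. Same-numbered libraries of both genotypes correlated at 0.015 to 0.10 in FGOs and -0.10 to 0.097 in embryos after removing group means. In 2 of 10 pairs both libraries correlated best with each other. With so few libraries these correlations cannot settle the question. With the replicate number as a block, 4 members passed in the control stage comparison (Khdc1c at 1.07, limma adjusted p = 0.030), 5 in K36M and 0 in the genotype and interaction comparisons, with medians of 2.75, 3.13, -0.028 (FGOs), 0.070 (embryos) and 0.15 (interaction), and the interaction of Trim43b was -0.025.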
